A study of Mus musculus with 35 samples.

Results

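The genes described here are 44 mouse genes that interferons are known to induce, chosen as a list by name. They were found on the arrays through the accession given for each probe, which a RefSeq gene table assigned to 42 of the 44. These 42 genes had 53 probes, out of 20886 genes named on the arrays, and no probe was matched to Mx1 or Mx2. After a filter on dim probes, 34 of the genes could be tested among 8622 genes in sorted cells, and 35 among 10636 genes over all arrays.

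The arrays compared CD8+ T cells from tissues and blood of healthy, untreated, wild type female C57Bl/6 mice, 8 to 16 weeks of age. Resident memory T cells (Trm) were taken from liver, lung and small intestine by dissociation, a Percoll gradient of 40% and 80%, and magnetic beads in 2 rounds of positive selection, for CD8b and afterwards for CD103 (an integrin that anchors T cells to epithelium). Effector memory T cells (Tem) came from the blood of those mice as CD8b+ cells left after depletion of CD62L+ cells. Unsorted suspensions of liver, lung and intestine, called whole organs here, and of blood mononuclear cells (PBMC) were measured as a control for other cells in the sorted samples. Blood Tem, intestine Trm and lung Trm had 6 arrays each, liver Trm had 5, and every whole sample had 3. The labels do not tie arrays to animals, so p-values measure only the spread between these samples.

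Interferons are secreted proteins that signal through receptors and JAK kinases to STAT and IRF transcription factors. Type I interferons lead to a complex with STAT2 and IRF9 that binds the interferon-stimulated response element (ISRE), while interferon gamma acts on many genes through the gamma-activated sequence (GAS). The genes they induce include RNA sensors, antiviral effectors, the ubiquitin-like protein ISG15, and families of large GTPases that act on the membranes around intracellular parasites and bacteria.

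Promoter stretches of 10 of the genes described below are shown first, called and not called, for their matches to the ISRE or the GAS. RefSeq windows from 250 bases before to 50 bases after a start site (build GRCm38.p6) were at hand for 32 of the 44 genes. Each stretch of 60 bases reads 5′ to 3′ on the strand of the gene, and capitals mark matches on either strand to the ISRE letters (GAAA, any 2 bases, GAAA) or the GAS letters (TTC, any 3 bases, GAA), which overlap in some promoters. The coordinates are chr4:156200850-156200909 on the minus strand for Isg15, chr19:34583382-34583441 on the plus strand for Ifit3, chr7:104465195-104465254 on the minus strand for Trim30a and chr8:71537562-71537621 on the minus strand for Bst2. The GTPase promoters are at chr3:142620579-142620638 (plus) for Gbp2, chr3:142559980-142560039 (plus) for Gbp3, chr11:58199496-58199555 (plus) for Igtp, chr11:58214888-58214947 (plus) for Irgm2 and chr11:48871421-48871480 (minus) for Irgm1. The promoter of Irf1, shown for its GAS, is at chr11:53769899-53769958 (plus).
Isg15: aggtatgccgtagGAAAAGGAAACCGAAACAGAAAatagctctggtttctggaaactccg
Ifit3: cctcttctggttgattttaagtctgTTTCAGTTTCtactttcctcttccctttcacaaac
Trim30a: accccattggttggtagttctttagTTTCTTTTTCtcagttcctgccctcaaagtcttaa
Bst2: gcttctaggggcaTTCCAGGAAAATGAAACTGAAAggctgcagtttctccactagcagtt
Gbp2: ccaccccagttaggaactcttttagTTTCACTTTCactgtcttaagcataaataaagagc
Gbp3: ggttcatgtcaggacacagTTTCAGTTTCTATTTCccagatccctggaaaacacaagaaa
Igtp: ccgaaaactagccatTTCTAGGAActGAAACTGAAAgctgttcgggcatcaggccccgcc
Irgm2: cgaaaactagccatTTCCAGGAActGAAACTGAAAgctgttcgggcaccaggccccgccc
Irgm1: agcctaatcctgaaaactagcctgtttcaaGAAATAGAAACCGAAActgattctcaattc
Irf1: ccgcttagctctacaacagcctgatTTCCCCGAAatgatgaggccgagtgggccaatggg

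The ISRE letters stood in the windows of 19 of the 32 genes (59.4%), against 3.99% of 27025 genes with a window. The GAS letters stood in 11 of the 32 (34.4%), against 9.55% of all genes, and both in 7 (21.9%), against 0.54%. In Ifitm3 and Ddx58, both described below, the matches start 2 or more bases after the start site, so no stretch of theirs is shown. The windows of Ifi44, Irf7, Irf9, Oasl1, Oasl2, Samd9l, Tap1, Trim25 and Xaf1 held neither the ISRE nor the GAS letters. A match describes the letters only and is not evidence of binding.

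Several arrays stood apart from their groups. The share of probes well above background ran from 21.8% to 35.5% over the sorted arrays other than liver Trm 3, which had 12.2%, and PBMC 1 had 7.80% while whole liver 2 had 64.7%. Results are therefore also given without 4 arrays (liver Trm 3, blood Tem 3, whole liver 2 and PBMC 1), a choice made after seeing these shares and the correlations within groups. Sorted and whole samples lay on different slides and scan sessions, so that difference and the cell source cannot be told apart. All 8 T cell markers were well above background on every sorted array, and no probe was matched to Itgae, which encodes CD103. Their summed level was 6.62 to 11.5 times the 75th percentile in liver Trm, below every Tem array (11.7 to 13.8), and 9.10 to 12.9 in lung Trm and 6.53 to 13.5 in intestine Trm. Sorted tissue cells also carried markers of their organ. The 10 hepatocyte markers summed to 2.88 to 42.9 in liver Trm, with 9 or 10 above background, against 0.0586 to 0.0804 in Tem. In bulk samples, fewer cells expressing a gene and less RNA per cell cannot be told apart.

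Levels below are log2 intensities relative to the 75th percentile of each array, so a difference of 1 is a factor of 2. The sorted cells and all arrays were scaled and fitted with limma separately, and levels on the sorted-cell scale are not comparable with those on the all-array scale. A gene is called higher or lower when the adjusted p is under 0.05 over all genes tested.

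Across the 4 sorted groups, the 27 antiviral genes were highest on average most often in blood and lowest most often in the liver. Of these 27, 13 had their highest mean in blood Tem and 14 their lowest in liver Trm, while none had its lowest in lung Trm. Of the 7 GTPases, 3 had their highest mean in Tem and 4 their lowest in liver Trm. Over all 8 groups, Irgm1, Irgm2 and Iigp1 had their highest mean in whole liver, Gbp4 in whole lung, Gbp3 in intestine Trm, and Gbp2 and Igtp in Tem. Without the arrays that stand apart, Igtp had its highest mean in whole liver and the other GTPases kept their group. These ranks are descriptions of means, and many neighbouring means differ by less than the spread of their arrays. The matching ranks over all genes were not counted. Of all 8622 genes, 25.4% were called lower and 15% higher in liver Trm than in Tem.

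**Figure D1:**
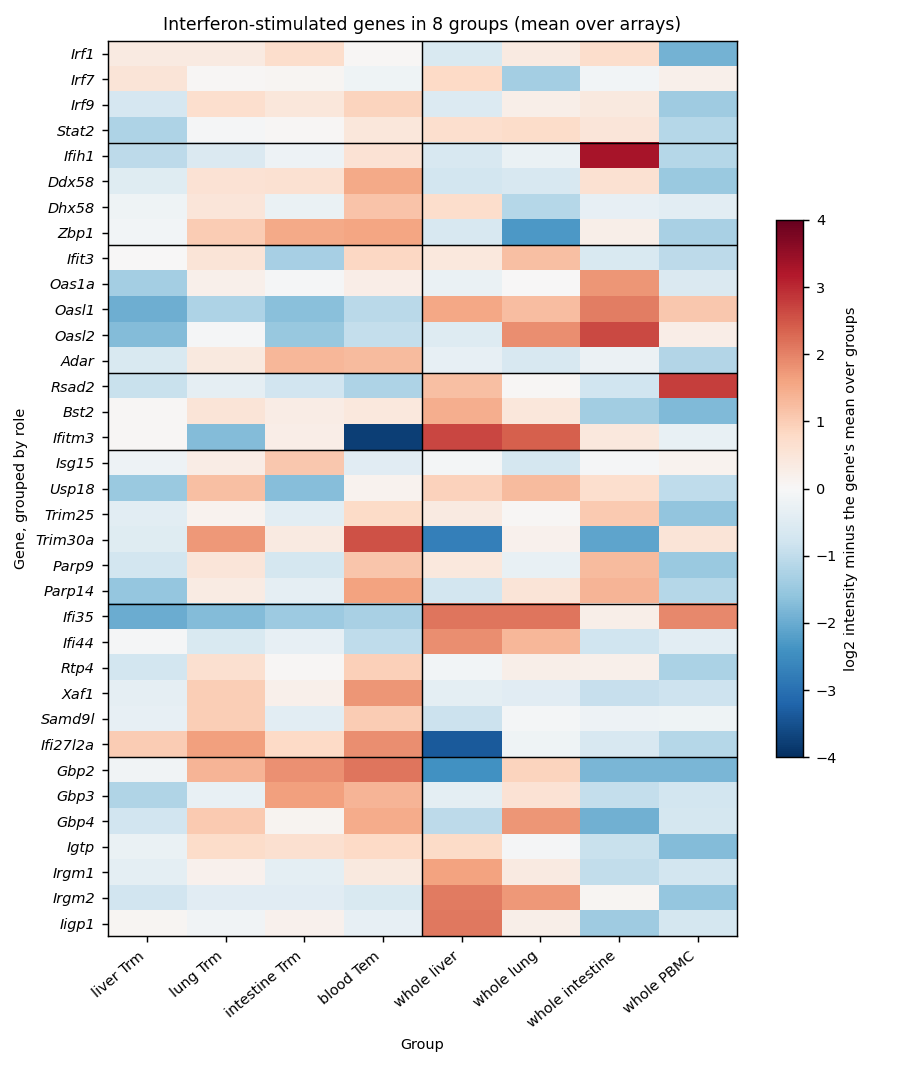
Mean level of each of the 35 tested genes in the 8 groups on the all-array scale, as log2 intensity minus the gene's own mean over the 8 groups (color, red above and blue below). Rows are genes by role, with the GTPases at the bottom, and columns are the groups, sorted cells left of the vertical line. Ifih1 stands out in whole intestine, Rsad2 in whole PBMC, Ifi35 in whole liver, lung and PBMC, Irgm2 in whole liver and lung, and Iigp1 in whole liver.

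Each Trm population was first compared with circulating Tem. Liver Trm differed from Tem in 15 of 34 genes, of which 13 were lower and 2 higher. This is 44.1% of them, close to the 40.3% of all 8622 genes called in that comparison (15% higher and 25.4% lower). The median difference of the 34 was -0.92 against -0.28 for all genes. The T cell markers, lower in sum on every liver Trm array than on any Tem array, moved with this comparison, and their part in it was not tested. Of 27 antiviral genes, 10 were lower and 2 higher, and of 7 GTPases 3 were lower. Among the calls, 8 had groups that did not overlap and 12 kept one direction on all slides the groups shared. The calls rest on these same arrays, and the matching shares over all genes were not counted. Without the arrays that stand apart, 8 of 33 genes were called (1 higher and 7 lower) against 21.2% of all genes. The split also moved with the scaling, from 3 higher and 14 lower with the deposited values and 1 higher and 21 lower when scaled over all probes to 4 higher and 6 lower after normexp. The share of all genes called moved with these counts, from 44.2% and 56.4% to 33.9%. Among all genes, 37.1% of the calls were higher, against 31.8%, 19.9% and 67.3% under those settings. Probes that were never above background lay 1.33 higher in liver Trm than in Tem.

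Lung Trm differed from Tem in 1 of 34 genes, Gbp3, which is 2.94% against a background of 3.13% (2.1% higher and 1.03% lower). The median difference was -0.09, with -0.10 over all genes. Intestine Trm differed from Tem in 8 of 34 genes (23.5%), 2 higher and 6 lower, against 17.7% of all genes (8.1% higher and 9.61% lower). All 8 were antiviral genes, and none of the 7 GTPases was called. The antiviral median was -0.41 and the GTPase median 0.04, with -0.03 over all genes. Without the arrays that stand apart, 6 were called (2 higher and 4 lower, background 16.2%). Leaving out lung Trm 5 gave 11 (background 19.7%), and leaving out intestine Trm 1 or blood Tem 1 gave 5 (background 14.2% in both). The 3 comparisons share the Tem arrays. Among all genes, 45.7% of the intestine calls were higher, against 36.5% with the deposited values, 54.9% after normexp and 30.4% when scaled over all probes.

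**Figure D2:**
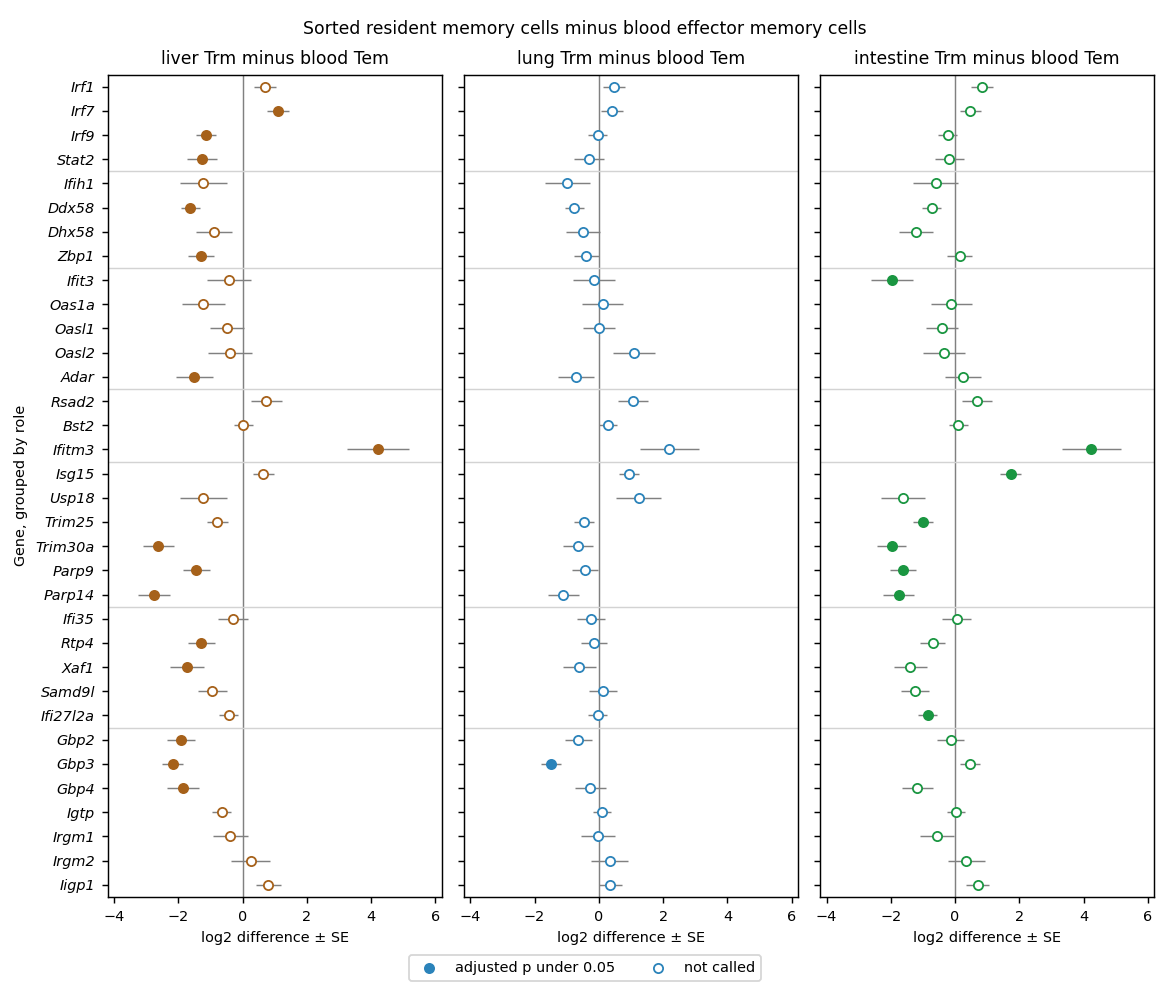
Fitted log2 difference ± SE of each of the 34 genes tested in sorted cells, for liver, lung and intestine Trm (columns) minus blood Tem, with genes in rows by role. Filled points had an adjusted p under 0.05. Ifitm3 lies farthest right in all 3 panels (4.21 in liver, filled, and 4.24 in intestine, filled), Trim30a and Parp14 lie far left in liver, and Gbp3 is the only filled point in lung.

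Of the 4 transcription factors, 3 were called in liver Trm against Tem and none in lung or intestine Trm. Irf1, which switches on many interferon gamma targets and carries the GAS shown above, was called in none of the comparisons among sorted cells. Its level was 0.84, 0.82, 0.37, -0.77 and -1.17 on the 5 liver Trm arrays, and ran from -0.63 (median -0.18) to 0.06 in lung Trm, from -0.66 (0.14) to 1.11 in intestine Trm and from -1.15 (-0.62) to -0.19 in Tem. All 4 groups overlapped, and the largest difference from Tem was 0.84 ± 0.33 in intestine (SE, adjusted p = 0.0861). Irf9 and Stat2, which belong to the ISRE-binding complex, were lower in liver Trm than in Tem by fits of -1.14 ± 0.31 (SE, adjusted p = 0.00991) and -1.27 ± 0.47 (adjusted p = 0.0372). Irf7, which amplifies type I interferon production, was higher by 1.09 ± 0.35 (adjusted p = 0.0188). None of these 3 calls remained without the arrays that stand apart (adjusted p of 0.0827 for Irf9, 0.0968 for Stat2 and 0.0653 for Irf7). Stat2 was also lost with the slide as a block and when any of liver Trm 3, liver Trm 6 or blood Tem 2, 3, 4 or 6 was left out, and Irf7 when scaled over all probes and without liver Trm 5 or 6.

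Among the sensors, Ddx58, which encodes the RNA sensor RIG-I, was lower in liver Trm than in Tem by a fit of -1.62 ± 0.31 (SE, adjusted p = 0.00101). Its mean level was -3.85 ± 0.68 (SD, n = 5) in liver Trm and -2.23 ± 0.12 (n = 6) in Tem, without overlap. The call held under all 8 other settings and when each array was left out. Another Ddx58 probe, above background on 0 of the 23 sorted arrays, gave 0.43 and did not enter the mean of the probes. Zbp1, a sensor of Z-form nucleic acids, measured -3.40, -3.22, -5.11, -3.92 and -4.69 on the liver Trm arrays. It ran from -3.68 (median -2.51) to -1.93 in intestine Trm and from -3.67 (-2.58) to -2.10 in Tem, so that the liver arrays overlapped both groups. The fit placed it lower in liver Trm than in Tem, by -1.29 ± 0.41 (adjusted p = 0.0180), and higher in intestine than in liver Trm, by 1.43 ± 0.41 (adjusted p = 0.0242). A second Zbp1 probe gave 1.02 for liver against Tem, and both calls were lost over the mean of the probes, after normexp, without the arrays that stand apart and without liver Trm 3 or 6. The call against liver Trm was also lost with slides as blocks and without intestine Trm 3 or 4. Ifih1 (MDA5) and Dhx58 (LGP2), the other RNA helicase sensors, were not called among sorted cells.

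Of the RNA-directed effectors, 5 were tested. Ifit3, a member of the family that binds foreign RNA caps, measured -3.92, -4.06, -3.29, -4.25 and -4.41 on the liver Trm arrays and ran from -5.02 (median -3.45) to -2.76 in lung Trm. It ran from -8.07 (median -5.14) to -3.17 in intestine Trm and from -4.60 (-3.59) to -2.62 in Tem. Intestine Trm overlapped Tem and was lower by a fit of -1.97 ± 0.66 (SE, adjusted p = 0.0418). That call was lost with the slide as a block, without the arrays that stand apart (adjusted p = 0.0779), and when any of intestine Trm 1, 5 or 6 or blood Tem 1, 2, 3 or 5 was left out. Adar, the RNA-editing adenosine deaminase, was lower in liver Trm than in Tem by -1.50 ± 0.58 (adjusted p = 0.0417), a call lost with slides as blocks and without the arrays that stand apart. Its second probe gave -1.73 in the liver but -1.47 in the intestine, where the first gave 0.25. Oas1a, Oasl1 and Oasl2, members of the oligoadenylate synthetase family, were not called among sorted cells.

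Ifitm3, a membrane protein that blocks virus fusion in endosomes, showed the widest differences from Tem. Its level was -6.21, -3.74, -1.53, -0.33 and -2.13 on the liver Trm arrays, from -6.42 (median -4.92) to -2.78 in lung Trm, and from -5.42 (-2.83) to 0.19 in intestine Trm. In Tem it ran from -8.18 (-7.18) to -4.76, and only 2 of 6 arrays were well above background. Liver Trm 1 and intestine Trm 5 fell within the Tem range, and the other arrays of both groups lay above it. It was higher than in Tem by 4.21 ± 0.97 in liver Trm (SE, adjusted p = 0.00376) and by 4.24 ± 0.92 in intestine Trm (adjusted p = 0.00292), and the fit gave 2.19 for lung Trm, which was not called. Both calls held under all 8 other settings and when each array was left out. Markers of tissue cells moved with these groups. Besides the hepatocyte markers, 3 to 6 of 8 Kupffer and sinusoidal markers were above background in liver Trm, with a summed level of 0.257 to 1.57 against 0.0129 to 0.0730 in Tem and with Timd4 and Lyve1 at background. In intestine Trm, 4 to 7 of 7 fibroblast and smooth muscle markers were above background, with a summed level of 0.183 to 8.07 against 0.0396 to 0.0629 in Tem. Their part in the Ifitm3 levels was not tested. Bst2 (tetherin), which holds virus particles on the cell surface, measured -2.48, -2.35, -1.65, -1.98 and -2.12 in liver Trm. It ran from -2.90 (median -1.64) to -1.37 in lung Trm, from -2.68 (-1.97) to -1.48 in intestine Trm and from -3.01 (-2.06) to -1.48 in Tem. These ranges overlapped, and the fitted difference of liver Trm from Tem was 0.02 ± 0.30 (adjusted p = 0.951). Rsad2 (viperin) was not called among sorted cells.

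In the ISG15 system, the modifier itself was higher in the intestine, and its protease was called in the lung. Isg15, the ubiquitin-like modifier, measured -2.79, -3.07, -2.09, -2.55 and -2.61 in liver Trm and from -2.76 (median -2.34) to -1.93 in lung Trm. It ran from -2.50 (median -1.49) to -0.82 in intestine Trm and from -4.53 (-3.16) to -2.46 in Tem. All intestine arrays but number 6 lay above every Tem array, and on each of 6 slides intestine Trm was above Tem. The fit gave 1.73 ± 0.32 for intestine Trm over Tem (SE, adjusted p = 0.000727) and 1.08 ± 0.34 over liver Trm (adjusted p = 0.0378). The first call held under all 8 other settings and when each array was left out, and the second was lost with slides as blocks and without any of 9 single arrays of the groups. A second, dimmer Isg15 probe gave 1.19 for intestine over Tem and was above background on 1 of 6 intestine arrays.

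Usp18, the protease that removes ISG15 and also damps the type I receptor, was higher in lung Trm than in liver or intestine Trm. Its level ran from -5.57 (median -3.63) to -3.13 in lung Trm and from -8.86 (-6.86) to -4.63 in intestine Trm, where 2 of 6 arrays were above background. It was -5.02, -6.48, -5.83, -7.34 and -7.29 in liver Trm, with 1 of 5 above background, and ran from -6.76 (-5.66) to -3.13 in Tem. Lung Trm 5 was the only lung array within the range of the intestine and liver arrays. Lung Trm was higher than liver Trm by 2.46 ± 0.73 (adjusted p = 0.0299), and intestine Trm was lower than lung Trm by a fit of -2.87 ± 0.69 (adjusted p = 0.0101), in the same direction on all 6 slides. The second call held under all 8 other settings and leave-one-out fits, and the first was lost after normexp and without liver Trm 5 or 6 or lung Trm 1, 2, 3 or 6. Neither the fit of lung nor that of intestine Trm against Tem was called. Alveolar macrophage markers moved with lung Trm: the 5 summed to 0.210 to 5.67 there, with 2 to 5 above background, against 0.0364 to 0.169 in liver Trm, 0.0174 to 0.0393 in intestine Trm and 0.0195 to 0.0701 in Tem. The lung epithelium markers, 7 with a probe, summed to 0.0889 to 8.84 in lung Trm, with 3 to 6 above background and Cldn18 on no array. They summed to 0.119 to 2.62 in liver Trm, 0.153 to 3.77 in intestine Trm and 0.0170 to 0.102 in Tem, so lung Trm overlapped each other group. The part of either marker list in the Usp18 levels was not tested.

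Trim30a, a TRIM protein that limits inflammatory signalling, was lower than in Tem in both liver and intestine. Its level was -4.30, -4.41, -5.90, -7.41 and -6.69 in liver Trm, of which the last 3 were not above background. It ran from -6.19 (median -4.96) to -4.43 in intestine Trm, from -5.13 (-3.58) to -2.95 in lung Trm and from -3.53 (-3.13) to -2.68 in Tem. Neither the liver nor the intestine arrays overlapped Tem. The fits were -2.63 ± 0.48 for liver Trm (SE, adjusted p = 0.000769), -1.97 ± 0.46 for intestine Trm (adjusted p = 0.00486) and 1.98 ± 0.48 for lung over liver Trm (adjusted p = 0.0120). Parp14, an ADP-ribosyltransferase, measured -4.21, -3.75, -5.56, -5.01 and -6.88 in liver Trm, from -5.71 (median -3.96) to -2.99 in intestine Trm, from -5.12 (-3.12) to -2.70 in lung Trm and from -2.88 (-2.30) to -1.77 in Tem. Every liver and intestine array lay below every Tem array. The fits were -2.76 ± 0.51 for liver Trm (adjusted p = 0.000735) and -1.75 ± 0.48 for intestine Trm (adjusted p = 0.0145), while lung Trm was above liver Trm by 1.66 ± 0.51 (adjusted p = 0.0328). The calls of Trim30a and Parp14 against Tem held under all 8 other settings and when each array was left out. For lung against liver Trm, Trim30a was lost without liver Trm 5 (adjusted p = 0.0501), and Parp14 after normexp, without the arrays that stand apart and without any of 8 single arrays of the groups.

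Parp9, the partner of a DELTEX ubiquitin ligase, was lower in both places as well, by fits of -1.44 ± 0.43 in liver Trm (adjusted p = 0.0135) and -1.61 ± 0.41 in intestine Trm (adjusted p = 0.00863). The liver call was lost after normexp and without the arrays that stand apart. Parp9, Parp14 and Trim30a were thus the 3 genes lower than Tem in both Trm populations, and Ifitm3 the 1 higher in both, counts that share the Tem arrays. Of all genes, 15% were higher and 25.4% lower in liver Trm, and 8.1% and 9.61% in intestine Trm. The share of all genes called alike in both was not counted. Trim25, the ubiquitin ligase that activates RIG-I, was lower in intestine Trm by -0.99 ± 0.31 (adjusted p = 0.0310), which did not pass without the arrays that stand apart.

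Among the remaining antiviral genes, Xaf1, a pro-apoptotic factor, was called lower in liver Trm than in Tem (adjusted p = 0.0164). It was above background on 0 of 5 liver arrays and 6 of 6 Tem arrays, with measured means of -6.87 ± 0.68 (SD, n = 5) and -5.13 ± 0.47 (n = 6), and the Tem mean did not exceed the lowest signal well above background on the liver arrays, so no fold is given. That call was lost after normexp, and a second, dimmer Xaf1 probe gave 0.45. Rtp4, a receptor chaperone, was lower by -1.29 ± 0.42 (adjusted p = 0.0195), and lost that call after normexp and without liver Trm 3. Ifi27l2a, a small interferon-induced membrane protein, was lower in intestine Trm than in Tem by -0.86 ± 0.29 (adjusted p = 0.0460), a call lost with slides as blocks and without any of 15 single arrays. Samd9l, a restriction factor that halts translation, ran from -3.92 (median -2.85) to -2.45 in lung Trm and from -5.26 (-4.43) to -3.45 in intestine Trm. The groups overlapped, and intestine Trm was lower by -1.39 ± 0.44 (adjusted p = 0.0467), also lost with slides as blocks and without any of 13 single arrays. Ifi35 was not called among sorted cells.

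**Figure D3:**
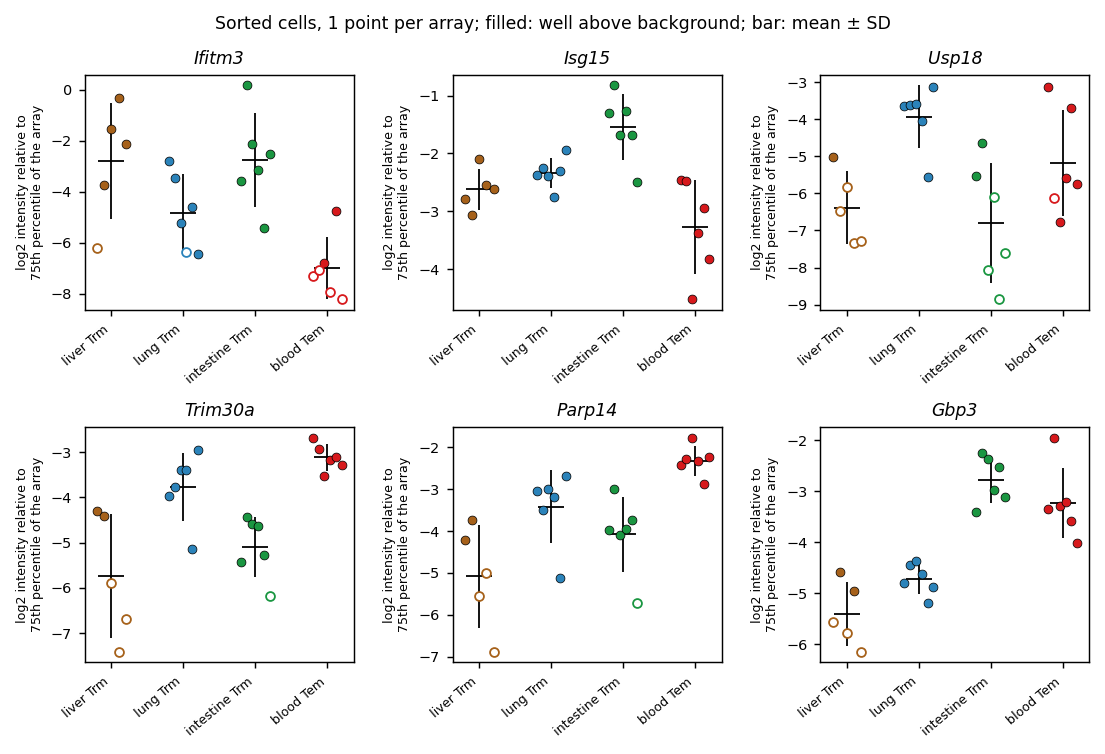
Levels of Ifitm3, Isg15, Usp18, Trim30a, Parp14 and Gbp3 on each of the 23 sorted-cell arrays (vertical axis, log2 intensity relative to the 75th percentile of the array; horizontal axis, liver, lung and intestine Trm and blood Tem). Filled points were well above background, open points were not, and bars give the mean ± SD. Gbp3 in intestine Trm (-3.42 to -2.26) and lung Trm (-5.18 to -4.36) does not overlap, and Trim30a and Parp14 are lower in liver and intestine Trm than in every Tem array.

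Among the GTPases, Gbp3 was called in 4 of the 6 comparisons of sorted cells, Gbp2 in 3 and Gbp4 in 2. Gbp3, a guanylate-binding protein that coats vacuoles of intracellular pathogens, measured -5.56, -4.59, -5.78, -4.97 and -6.15 in liver Trm, with 2 of 5 above background. It ran from -5.18 (median -4.72) to -4.36 in lung Trm, from -3.42 (-2.75) to -2.26 in intestine Trm and from -4.02 (-3.32) to -1.95 in Tem. The liver and lung arrays all lay below the intestine and Tem arrays, and intestine Trm and Tem overlapped. Gbp3 was lower than in Tem by -2.17 ± 0.33 in liver Trm (adjusted p = 0.000113) and by -1.48 ± 0.32 in lung Trm (adjusted p = 0.00853). Intestine Trm was higher than liver Trm by 2.63 ± 0.33 (adjusted p = 9.48e-06) and higher than lung Trm by 1.94 ± 0.32 (adjusted p = 0.000315). The lung call was lost with the deposited values (adjusted p = 0.137), and the other 3 held under all 8 other settings and when each array was left out.

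Gbp2, a related vacuole-coating GTPase, measured -3.67, -2.79, -5.93, -4.99 and -4.0 in liver Trm. It ran from -4.37 (median -2.86) to -2.50 in lung Trm, from -3.27 (-2.42) to -1.64 in intestine Trm and from -2.95 (-2.34) to -2.01 in Tem. Liver Trm 2 lay within the range of all 3 other groups and the other 4 liver arrays below Tem. Gbp2 was lower in liver Trm than in Tem by -1.91 ± 0.44 (adjusted p = 0.00380), and intestine Trm was higher than liver Trm by 1.77 ± 0.44 (adjusted p = 0.0105). Gbp4 measured -4.25, -4.09, -5.57, -5.66 and -6.10 in liver Trm, and ran from -5.08 (-3.10) to -2.92 in lung Trm, from -6.13 (-4.06) to -3.87 in intestine Trm and from -4.28 (-3.45) to -2.01 in Tem. It was lower in liver Trm than in Tem by -1.86 ± 0.49 (adjusted p = 0.00822), which was lost after normexp. These 2 Gbp2 calls held under all 8 other settings and when each array was left out. The liver arrays that were not above background were 1, 3 and 6 for Gbp3, 3 for Gbp2, and 3, 5 and 6 for Gbp4.

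The immunity-related GTPases, which act on vacuoles of intracellular parasites, were called in no comparison of sorted cells. Igtp (Irgm3) measured -1.58, -1.19, -2.70, -2.94 and -2.20 in liver Trm. It ran from -2.08 (median -1.26) to -1.09 in lung Trm, from -1.82 (-1.45) to -1.01 in intestine Trm and from -1.72 (-1.52) to -0.99 in Tem. Its liver arrays 3, 5 and 6 lay below all other sorted arrays and arrays 1 and 2 among them, with a fit of -0.66 ± 0.29 against Tem (adjusted p = 0.0697). Irgm1, Irgm2 and Iigp1 were likewise not called.

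The Trm populations were then compared with each other. Lung Trm was higher than liver Trm in 6 of 34 genes (Usp18, Trim30a, Parp14, Gbp4, Gbp2 and Irf9) and lower in none, which is 17.6% against a background of 17.8% (9.27% higher and 8.52% lower). The median difference was 0.72 against 0.23 over all genes. Irf9 was higher by 1.1 ± 0.31 (adjusted p = 0.0252), Gbp4 by 1.60 ± 0.49 (adjusted p = 0.0346) and Gbp2 by 1.27 ± 0.44 (adjusted p = 0.0493). This count rested on few arrays. It was 0 without liver Trm 5 (5.18% of all genes called), 1 without liver Trm 6 (5.2%) and 2 without liver Trm 3 (7.76%). It was 11 without liver Trm 1 (24%), 12 without liver Trm 2 (33%) and 14 without lung Trm 5 (28.9%). It was 3 without the arrays that stand apart (16.9%), and Gbp2 and Irf9 were lost with the slide as a block. It was 2 after normexp (21.1% of all genes), 15 with the deposited values (39.5%) and 18 when scaled over all probes (40.4%). Among all genes, 52.1% of the calls were higher in lung Trm, against 10.2%, 64.1% and 82.2% under those settings.

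Intestine Trm was higher than liver Trm in 4 of 34 genes (Gbp3, Gbp2, Zbp1 and Isg15) and lower in none, 11.8% against 11.7% of all genes (8.87% higher and 2.83% lower). The count was 2 without liver Trm 6 (7.46% of all genes) or intestine Trm 4 (9.51%) and 7 without liver Trm 2 (15.8%), and 3 without the arrays that stand apart. Intestine and lung Trm differed in 3 of 34 genes, Gbp3 higher and Usp18 and Samd9l lower in the intestine, 8.82% against 9.52% (5.28% higher and 4.24% lower). That count was 7 without lung Trm 5 (13.9%), 5 without intestine Trm 2 (9.13%), and also 5 without the arrays that stand apart (15.9%). In all, 21 of the 34 genes were called in at least 1 of the 6 comparisons of sorted cells and 13 in none. This is 61.8%, against 55.9% of all 8622 genes.

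Sorted cells were next set against the whole organ they came from, on the all-array scale. Liver Trm differed from whole liver in 12 of 35 genes, 3 higher and 9 lower, 34.3% against 32.2% of 10636 genes (8.53% higher and 23.7% lower), with 18 called without PBMC 1 (background 43.3%) and 7 without whole liver 1 (25.8%). Lung Trm differed from whole lung in 8 genes, 2 higher and 6 lower, 22.9% against 41.5% (15.7% higher and 25.8% lower). Without lung Trm 5 there were 12 calls (background 42.6%), and without whole lung 1 there were 5 (32.1%). Intestine Trm differed from whole intestine in 13 genes, 7 higher and 6 lower, 37.1% against 31.8% (11.7% higher and 20.1% lower). Without PBMC 1 there were 20 calls (background 38.8%), and without the arrays that stand apart there were also 20 (11 higher and 9 lower, background 48.3%). Member medians were -0.81, 0.06 and 0.04, with -0.33, 0.09 and -0.01 over all genes. Blood Tem differed from PBMC in 22 genes, 18 higher and 4 lower, 62.9% against 55.2% (43.9% higher and 11.3% lower). Without PBMC 1 that count was 9, with 3 higher and 6 lower, against 26.9% of all genes, so most of the blood calls rested on that array. Without all 4 arrays that stand apart it was 10 (4 higher and 6 lower, background 29.8%).

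Ifi35 and Oasl1 were lower in all 4 sorted populations than in the matching whole sample. Ifi35, an adaptor of innate signalling, measured -1.29, -1.15 and -1.49 in whole liver, -1.55, -1.42 and -1.01 in whole lung, -1.98, -2.70 and -5.02 in whole intestine and -0.34, -2.06 and -2.17 in PBMC. It was -5.41, -5.99, -5.60, -5.05 and -5.15 in liver Trm, and ran from -6.42 (median -5.00) to -4.62 in lung Trm, from -6.02 (-4.82) to -3.51 in intestine Trm and from -5.98 (-4.51) to -4.05 in Tem. Only whole intestine 3 overlapped its sorted group. The fits were -4.13 ± 0.57 in liver (adjusted p = 8.41e-07), -3.86 ± 0.55 in lung (adjusted p = 9.60e-07), -1.67 ± 0.55 in intestine (adjusted p = 0.0189) and -3.23 ± 0.55 in blood (adjusted p = 2.88e-05), and the intestine call was lost with the deposited values and without whole intestine 1 or 2. Oasl1, which restrains translation of Irf7, measured -2.38, -2.43 and -1.89 in whole intestine and ran from -7.86 (-5.93) to -4.49 in intestine Trm. The fits of Oasl1 were -3.49 in liver, -2.47 in lung, -3.74 in intestine and -2.15 in blood, each with an SE of 0.62 to 0.64 and adjusted p from 9.23e-06 to 0.00353. The 4 Oasl1 calls, and those of Ifi35 in liver, lung and blood, held under all 8 other settings and leave-one-out fits.

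Other antiviral genes differed in single organs. Ifi27l2a measured -6.87, -4.83 and -6.09 in whole liver and -1.55, -0.85, -1.88, -2.0 and -1.39 in liver Trm. The groups did not overlap, and liver Trm was higher by 4.40 ± 0.79 (adjusted p = 3.59e-05). Ifitm3 measured -1.08, -1.32 and -1.30 in whole lung and from -7.02 (median -5.58) to -3.26 in lung Trm, which was lower by a fit of -4.15 ± 1.09 (adjusted p = 0.00225). Zbp1 was higher in lung Trm than in whole lung by 3.30 ± 0.57 (adjusted p = 1.30e-05). Oasl2 measured -3.45, -3.35 and -1.97 in whole intestine and from -8.52 (median -7.51) to -4.56 in intestine Trm, with 1 of 6 above background, and was lower in the sorted cells by -4.14 ± 0.78 (adjusted p = 6.49e-05). Ifih1 was lower in intestine Trm than in whole intestine by -3.51 ± 0.83 (adjusted p = 0.00119), on the 1 of its 2 probes that passed the filter. These 5 calls held under all 8 other settings and when each array was left out.

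The GTPases are given here by organ. In the intestine 4 of 7 were higher in Trm than in the whole organ and none lower, with a median of 1.58 against -0.01 over all genes. Of all genes, 11.7% were called higher and 20.1% lower in intestine, 8.53% and 23.7% in liver, and 15.7% and 25.8% in lung. Gbp2 was higher by 3.64 ± 0.71 (adjusted p = 0.000103), Gbp3 by 2.58 ± 0.55 (adjusted p = 0.000375), Gbp4 by 2.03 ± 0.66 (adjusted p = 0.0159) and Iigp1 by 1.58 ± 0.42 (adjusted p = 0.00353), and Gbp4 was lost without whole intestine 1 or 2. In the liver 3 were lower, Irgm2 by -2.83 ± 0.73 (adjusted p = 0.00267), Iigp1 by -2.06 ± 0.43 (adjusted p = 0.000315) and Irgm1 by -2.0 ± 0.65 (adjusted p = 0.0163), and Gbp2 was higher by 2.28 ± 0.73 (adjusted p = 0.0147). Irgm1 lost its call under 3 of the 8 other settings and without liver Trm 3, liver Trm 6 or whole liver 1, and Gbp2 without liver Trm 2 or whole liver 2 and with the deposited values. In the lung Irgm2 was lower by -2.19 ± 0.71 (adjusted p = 0.0125), lost with the deposited values and without whole lung 1 or 3.

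Whether these sorted-to-whole differences themselves differed between organs was tested with an interaction term, 105 tests over 35 genes, of which 15 were called. That is 14.3%, against 17.5% of the tests over all genes. By pair, 1 of 35 was called for liver minus lung (2.86%, background 16%), 6 for liver minus intestine (17.1%, background 14.5%) and 8 for lung minus intestine (22.9%, background 22.1%). For Gbp3, the liver difference was below the intestine difference by -3.39 ± 0.80 (adjusted p = 0.00235) and the lung difference by -3.44 ± 0.78 (adjusted p = 0.00131). For Iigp1 the liver minus intestine value was -3.63 ± 0.60 (adjusted p = 2.96e-05), for Bst2 -3.12 ± 0.68 (adjusted p = 0.00104) and for Irgm1 -2.60 ± 0.91 (adjusted p = 0.0483). Lung minus intestine values were -3.20 ± 1.00 for Gbp2 (adjusted p = 0.0191) and -2.73 ± 0.93 for Gbp4 (adjusted p = 0.0312). For the same pair, Parp9 and Ifih1 were above 0, at 2.77 ± 0.78 (adjusted p = 0.00931) and 3.20 ± 1.18 (adjusted p = 0.0483). The other calls were below 0. They were Zbp1 for liver minus lung (-2.78), Iigp1 for lung minus intestine (-1.98), and Ifi35 and Ifi44 for liver minus intestine (-2.45 and -2.35) and lung minus intestine (-2.18 and -2.38). The summed level of the 8 T cell markers was 0.0262 to 0.446 in whole liver, lung and intestine and 3.62 to 9.44 in Trm, on the all-array scale.

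In blood, Rsad2, Ifitm3, Ifi35 and Oasl1 were lower in Tem than in PBMC. Rsad2, a radical SAM enzyme that makes a chain-terminating nucleotide, measured -7.60, -0.48 and -1.23 in PBMC and from -7.93 (median -7.16) to -6.15 in Tem. PBMC 1, not above background, lay among the Tem arrays while PBMC 2 and 3 lay far above. The fit was -4.02 ± 0.87 (adjusted p = 0.000279) and -7.03 without PBMC 1 (adjusted p = 6.51e-09). Gbp2 measured -7.62, -5.90 and -6.72 in PBMC and from -3.29 (-2.85) to -1.88 in Tem, and Tem was higher by 3.98 ± 0.71 (adjusted p = 4.00e-05) and by 2.79 without PBMC 1 (adjusted p = 0.00420). Ddx58 and Zbp1 also stayed higher in Tem without PBMC 1, by 1.27 (adjusted p = 0.0216) and 1.36 (adjusted p = 0.0494), while 15 other genes that were higher in Tem with all arrays were not called without it. Ifitm3, lower in Tem by -3.49 ± 1.09 (adjusted p = 0.00727), lost its call without PBMC 2 or 3. Isg15 and Oasl2 were called lower in Tem only without PBMC 1, by -2.07 (adjusted p = 0.000621) and -3.14 (adjusted p = 0.00532).

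The whole samples were compared with each other last. Whole liver differed from PBMC in 8 of 35 genes (7 higher and 1 lower, 22.9%, against 30.2% of all genes, 26.9% higher and 3.23% lower), whole lung in 9 (7 higher and 2 lower, 25.7%, against 32%, 30.1% higher and 1.88% lower) and whole intestine in 12 (9 higher and 3 lower, 34.3%, against 45%, 37.3% higher and 7.73% lower). Without PBMC 1 these became 4 higher and 4 lower, 3 higher and 3 lower, and 2 higher and 10 lower (28.4%, 23.2% and 30.8% of all genes called), so the directions depended on that array. Whole lung differed from whole liver in 6 genes (4 higher and 2 lower, 17.1%, against 23%, 12.1% higher and 11% lower), whole intestine from whole liver in 9 (4 higher and 5 lower, 25.7%, against 30.5%, 14% higher and 16.5% lower) and whole intestine from whole lung in 9 (2 higher and 7 lower, 25.7%, against 25%, 12.9% higher and 12.1% lower). All calls between the 3 organs kept their direction on the 3 shared slides. Those slides also gave the calls, and the share among all called genes was not counted. Counts moved without single arrays: the 2 intestine comparisons with liver and PBMC each gave 5 calls without whole intestine 3 (background 14.7% and 27.5%). Intestine against lung gave 14 without PBMC 1 (32.4%) and 4 without whole lung 1 or 3 (17.7% and 17%). Lung against PBMC gave 17 without PBMC 2 (39.9%) and 4 without whole lung 1 or 3 (19.1% and 20.8%).

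Ifih1, the sensor of long double-stranded RNA, was higher in whole intestine than in each of the other whole samples. It measured -4.62, -5.08 and -1.76 in whole intestine, -6.93, -7.55 and -8.78 in whole liver, -6.78, -7.69 and -7.63 in whole lung and -7.59, -8.64 and -8.51 in PBMC. Every intestine array lay above all the other whole-sample arrays, of which only whole lung 1 was above background, and whole intestine 3 was the highest. These levels are those of 1 Ifih1 probe, and another was above background on 0 of the 35 arrays. Whole intestine was higher than PBMC by 4.43 ± 0.96 (adjusted p = 0.000355), at least 4.53-fold over background, and higher than whole liver by 3.93 ± 0.96 (adjusted p = 0.00209), at least 6.62-fold. It was higher than whole lung by 3.55 ± 0.96 (adjusted p = 0.00510), a call lost without whole intestine 3. Without that array the bounds were at least 2.22-fold over PBMC (adjusted p = 0.0112) and at least 3.24-fold over whole liver (adjusted p = 0.0494), and without whole intestine 2 they were at least 7.02-fold and 10.2-fold. Oasl2, -5.65, -6.25 and -6.30 in whole liver, was higher in whole intestine by 3.14 ± 0.90 (adjusted p = 0.00823), also lost without whole intestine 3.

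Bst2 ran the other way. It measured -1.53, -1.80 and -1.18 in whole liver, -2.24, -3.03 and -2.21 in whole lung, -4.49, -4.38 and -4.18 in whole intestine and -6.75, -3.40 and -4.02 in PBMC, and the 3 organs did not overlap. Whole intestine was lower than whole liver by -2.85 ± 0.55 (adjusted p = 0.000118) and than whole lung by -1.86 ± 0.55 (adjusted p = 0.0101), the latter lost without whole lung 1 or 3. Ifi27l2a measured -2.51, -2.86 and -2.87 in whole lung, above the whole liver arrays given before, and was higher there by 3.19 ± 0.88 (adjusted p = 0.00666). Trim30a was not above background on any whole liver array and lay at least 2.05-fold below PBMC (fit -3.26 ± 0.84, adjusted p = 0.00271), or at least 4.41-fold without PBMC 1.

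Among the GTPases, Iigp1 and Irgm2 were highest in whole liver on average. Iigp1 measured -3.82, -3.60 and -3.58 in whole liver, -5.37, -5.97 and -5.30 in whole lung, -6.65, -7.10 and -7.86 in whole intestine and -7.60, -5.62 and -6.28 in PBMC, and the 3 organs followed each other without overlap. Whole intestine was lower than whole liver by -3.53 ± 0.49 (adjusted p = 4.29e-07) and whole lung by -1.88 ± 0.49 (adjusted p = 0.00380). Irgm2 measured -1.84, -2.32 and -1.97 in whole liver, -1.92, -3.23 and -2.0 in whole lung, -4.56, -4.42 and -3.15 in whole intestine and -7.60, -4.50 and -4.92 in PBMC. It was higher than in PBMC by 3.63 ± 0.82 in liver (adjusted p = 0.000750) and by 3.29 ± 0.82 in lung (adjusted p = 0.00239), the latter lost without the 4 arrays that stand apart (adjusted p = 0.0622).

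Gbp4 and Gbp2 were highest among organs in the lung. Gbp4 measured -2.75, -4.52 and -2.97 in whole lung, -7.97, -7.25 and -6.01 in whole intestine and -6.69, -6.02 and -5.95 in whole liver. Lung arrays lay above all liver and intestine arrays. Whole lung was higher than whole liver by 2.81 ± 0.76 (adjusted p = 0.00552), and whole intestine lower than whole lung by -3.66 ± 0.76 (adjusted p = 0.000290). Gbp2 measured -3.75, -4.53 and -3.79 in whole lung, -6.51, -8.47 and -7.07 in whole liver and -8.43, -7.62 and -4.19 in whole intestine, where array 3 fell among the lung arrays. Whole lung was higher than whole liver by 3.33 ± 0.82 (adjusted p = 0.00232). All 7 GTPases had a fitted difference below 0 for whole intestine against whole lung (median -1.66), and 3 were called. Over all genes the median was -0.06 and 25% were called (12.9% higher and 12.1% lower). The share of all genes below 0 was not counted.

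**Figure D4:**
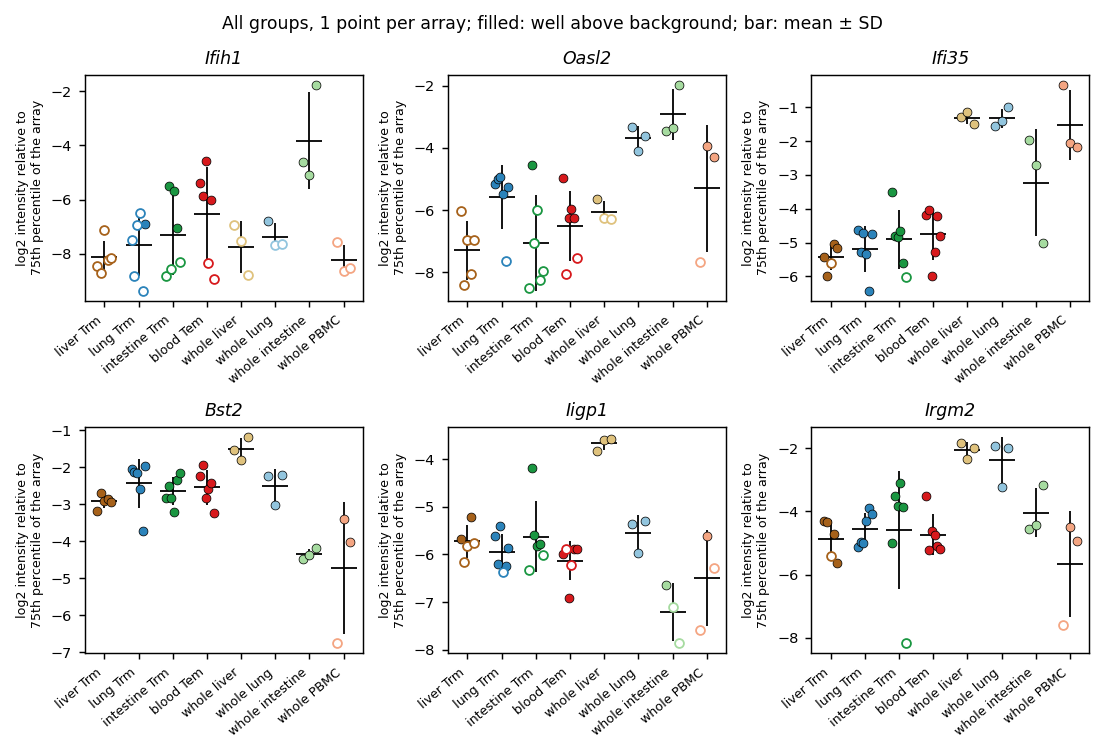
Levels of Ifih1, Oasl2, Ifi35, Bst2, Iigp1 and Irgm2 on each of the 35 arrays (vertical axis, log2 intensity relative to the 75th percentile of the array; horizontal axis, the 8 groups). Filled points were well above background, open points were not, and bars give the mean ± SD. Ifih1 is highest in whole intestine (-5.08 to -1.76), Iigp1 steps down from whole liver to lung to intestine, and Ifi35 is lower in every sorted group than in whole liver or lung.

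The remaining genes were too dim to test. Ifit1 was above background on 0 of the 23 sorted arrays and on 1 whole intestine array. Ifit2, Oas2, Oas3, Eif2ak2, Gbp7 and Tap1 were not above background on 3 arrays of any group, and Ifi44 reached that only in whole samples. Ifi44 was above background on all 3 whole liver and all 3 whole lung arrays, and was lower in Trm by -1.89 ± 0.59 in liver (adjusted p = 0.0125) and by -1.92 ± 0.57 in lung (adjusted p = 0.00673). The liver call was lost after normexp and without whole liver 2.

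Other genes of the pathway were taken from lists of ligands, receptors, signalling factors, inhibitors and further induced genes, 136 in all, of which 126 had a probe and 80 were tested in sorted cells. Against Tem, 8 were higher and 35 lower in liver Trm (53.8%, against 40.3% of all genes), 2 higher and 4 lower in lung Trm (7.5%, against 3.13%), and 9 higher and 13 lower in intestine Trm (27.5%, against 17.7%). Their median differences were -0.77, -0.30 and -0.26, with -0.28, -0.10 and -0.03 over all genes. The lists were chosen with earlier results of these data known, so these shares and medians are descriptions only. Cxcl10, a chemokine of CXCR3-bearing T cells, was above background on 0 of 6 Tem arrays and was at least 9.13-fold higher in liver Trm (4.09 ± 0.57, adjusted p = 3.28e-05), at least 2.25-fold in lung Trm (2.08 ± 0.54, adjusted p = 0.0339, lost without any of 6 arrays of the 2 groups) and at least 21.0-fold in intestine Trm (5.29 ± 0.54, adjusted p = 5.23e-07). Serping1, the C1 inhibitor of complement, was at least 9.52-fold higher in liver Trm and at least 7.97-fold in intestine Trm, or 4.80-fold without intestine Trm 2. Ifitm2, a relative of Ifitm3, was higher in liver Trm by 3.95 ± 0.79 (adjusted p = 0.00160), and Gbp6 was higher in lung Trm by 2.70 ± 0.62 (adjusted p = 0.0157). Phf11a was above background on all 6 Tem arrays and on none in lung or intestine Trm, and was at least 3.88-fold lower in lung Trm (adjusted p = 4.13e-05) and at least 2.91-fold lower in intestine Trm (adjusted p = 2.86e-05). The tissue markers given with Ifitm3 and the alveolar macrophage markers given with Usp18 move with these groups too, and their part was not tested.

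Of the ligands, Ifng was the one that T cells make. It was higher in intestine than in lung Trm by 3.69 ± 0.91 (adjusted p = 0.0111), being above background on 5 of 6 and 1 of 6 arrays. Against whole intestine it was at least 11.8-fold higher in intestine Trm, or 20.5-fold without intestine Trm 2. The fits of Ifng against Tem were -1.88 in liver, -2.83 in lung and 0.86 in intestine, with adjusted p of 0.113, 0.103 and 0.523. Ifnar1, a chain of the type I receptor, was lower than in Tem by -1.04 ± 0.33 in liver Trm (adjusted p = 0.0188) and by -1.18 ± 0.32 in intestine Trm (adjusted p = 0.0129). Ifngr1, the ligand-binding chain of the interferon gamma receptor, was higher in intestine than in lung Trm by 1.53 ± 0.32 (adjusted p = 0.00287).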

How the data were processed

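Amplified RNA (2 rounds) was labelled with Cy3 and hybridised to 1-colour Agilent arrays of 43020 spots and 39429 probes. The deposited scanner files give each spot's intensity after background subtraction by Feature Extraction, version 11.0.1.1 per the file headers and 10.7 per the submitters' processing notes. The deposited series table holds log2 values, which match a quantile normalisation of those intensities and were used as an alternative only.

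Repeated spots of a probe were averaged. Levels are log2 of the processed intensity minus the array's 75th percentile, taken over probes that no array of the fit had near background (4045 for the 23 sorted-cell arrays, 1342 for all 35). To be tested, a gene needed a probe above background on 3 or more arrays of 1 group, and it was represented by its brightest such probe. Differences were fitted with limma 3.58.1 (lmFit, eBayes) in R 4.3.3, with Benjamini-Hochberg adjustment over all genes tested, after the fitting code was tested on simulated data. Sorted cells were fitted on their own, and comparisons with whole samples over all arrays.

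Alternatives were the deposited values, normexp background correction (offset 50), scaling over all probes, 2 other filters and the mean of a gene's probes. Further ones were the slide as a block, leaving out each array, and leaving out the 4 arrays that stand apart. The mean took only probes that passed the filter on dim probes. Levels on single arrays are given for the called genes with the largest differences in each comparison and for 3 bright genes called in no comparison of sorted cells. The genes and lists were chosen with earlier results of these data known. Replicate numbers follow slides among sorted cells. Correlations of same-numbered samples' deviations ran from -0.36 to 0.44 with a median of -0.01, and 7 of 33 were over 0.1, so the numbers were not taken as pairs. Of the probes, 11921 had no gene name here. Whether a probe also binds a close paralogue (Ifit3, the Gbp family) was not tested.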

Additional observations from a re-analysis of the deposited data

Results flagged for a closer look

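Some arrays lay far from the rest of their group by Dixon's test, 9 of 88 groups tested, where chance gives about 5%. Lung Trm 5 was the lowest of its 6 arrays for Gbp2 (-4.37, next array -2.89), Igtp (-2.08, next -1.37), Oasl2 (-6.82, next -4.96) and Parp14 (-5.12, next -3.50). Intestine Trm 6 was the lowest for Gbp4 (-6.13, next -4.61) and Irgm2 (-7.50, next -4.28). Intestine Trm 2 was the highest for Iigp1 (-3.44, next -5.15). Blood Tem 3 was the lowest for Iigp1 (-7.09, next -5.67) and blood Tem 1 the highest for Irgm2 (-3.06, next -4.18). These levels are on the sorted-cell scale.

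For Bst2 and Iigp1 the difference between Trm and whole organ ran in opposite directions in liver and intestine, and the difference of these differences was -3.12 for Bst2 (adjusted p = 0.00104) and -3.63 for Iigp1 (adjusted p = 2.96e-05, limma interaction term).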

How the results depend on the processing

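Under the 8 settings besides leave-one-out, 106 counts of called genes stayed within 1.5 times the main count and 22 did not. Without the arrays that stand apart, 6 for intestine Trm against Tem and 3 for intestine against liver Trm stayed within that range. Outside it, the count was 8 for liver Trm against Tem, 3 for lung against liver Trm and 5 for intestine against lung Trm. It was also 20 for intestine Trm against whole intestine, 10 for Tem against PBMC and 14 for whole intestine against whole lung. With the deposited values it was 15 for lung against liver Trm, 5 for intestine against lung Trm, 6 for liver Trm against whole liver and 5 for whole lung against PBMC. Scaled over all probes it was 13 for intestine Trm against Tem, 18 for lung against liver Trm, 6 for intestine against lung Trm and 13 for lung Trm against whole lung. With no filter it was 5 for intestine Trm against Tem, 12 for lung and 2 for intestine against liver Trm, and 5 for whole lung against PBMC. After normexp it was 2 for both comparisons with liver Trm, and with the stricter filter 7 for intestine against liver Trm. With the slide as a block it was 2 for intestine against liver Trm. The share of all genes called moved the same way for 19 of the 22 counts outside the range and not for 3. The cause was not tested.

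With the replicate block (slide) the counts were 13 and 6 for liver and intestine Trm against Tem, 1 for lung Trm against Tem, 4 and 2 for lung and intestine against liver Trm and 2 for intestine against lung Trm. Leaving out single arrays gave 11 to 18 for liver, 1 to 1 for lung and 5 to 11 for intestine Trm against Tem, 0 to 14 and 2 to 7 for lung and intestine against liver Trm, and 2 to 7 for intestine against lung Trm. For Trm against the whole organ it gave 7 to 18 in liver, 5 to 12 in lung and 9 to 20 in intestine, and 9 to 25 for Tem against PBMC. Against PBMC it gave 7 to 12 for whole liver, 4 to 17 for whole lung and 5 to 14 for whole intestine. Between organs it gave 5 to 8 (lung, liver), 5 to 12 (intestine, liver) and 4 to 14 (intestine, lung).

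Irf1 and Trim25 (Tem against PBMC) and Irf9 (whole intestine against PBMC) changed sign without PBMC 1, to -0.54, -0.33 and -0.023, and without all 4 arrays to -0.47, -0.41 and -0.077. Of 145 calls of a gene in a comparison, 55 held under all 8 settings and every leave-one-out fit. Signal near background limits the low levels, above all in liver Trm and PBMC 1.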
